A study of Gallus gallus with 24 samples.

Results

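The right ventricle of the chick embryo was compared between embryonic day 6 (E6) and embryonic day 8 (E8) of normal development. The comparison used all 4 arrays labelled as normal right ventricle at these ages, of 24 arrays in the study. They come from 2 pools of dissected tissue, 1 per age, and the labelled sample of each pool was split over 2 arrays. Each pool held 6 to 12 specimens, and the labels do not give the strain or sex of the embryos. The difference was taken as E8 minus E6 on the log2 scale for every probe set that is not a hybridisation control.

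The study also held pools of both ventricles together at E4, E5 and E6, of the normal left ventricle at E6, E8 and E10, and of the normal right ventricle at E10. Embryos with a partial ligation of the left atrial appendage on day 4 gave a left and a right ventricle pool at E8, and embryos with conotruncal banding on day 4 gave a pool of both ventricles at E5. No pool was labelled as sham-operated. The left ventricle over the same days shares no pool with the right and served as the nearest comparison, and the E6 pool of both ventricles as a second look at the earlier age.

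At these ages the chick heart passes from a thin trabeculated wall to a compact one, and septation separates the right ventricle, which will serve the lungs, from the left. Cells of the epicardium, the outer layer of the heart, enter the wall and give rise to fibroblasts and to the smooth muscle and pericytes of the coronary vessels, and the coronary vessels become connected to the aorta. Heart muscle meanwhile matures in its contractile proteins and in its use of fatty acids.

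Each age had n = 1 pool. The SD given with a value is that between its 2 technical arrays and leaves out the variation between embryos, so the step itself has no replicate check and no p-value. Dim probe sets were set aside by requiring a pool mean of at least 4.09, the middle of all values that are not from controls, in 1 pool or more, which left 20335 of 38439. A kept probe set was counted as higher or lower when the pool means differed at least 2-fold and the arrays of the pools did not overlap, and rises and falls below are those that met this rule. Differences between bulk pools cannot tell fewer cells of a type from less RNA per cell.

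The duplicate arrays lay close together, with an SD between arrays of 0.111 in the right E6 pool and 0.121 in the right E8 pool, and array medians lay between 4.03 and 4.15 in the whole study. The probe sets for actin, GAPDH and EF1A were 0.05 to 0.21 higher at E8. Markers of the labelled tissue were high: NKX2-5 and IRX4, transcription factors of heart muscle and of the ventricle, stood at 13.2 and 13.4 or above at both ages, and MYL2, the ventricular myosin light chain, at 15.2 and 15.3. The E6 pools differed from one another. Right E6 differed at least 2-fold from left E6 in 916 kept probe sets and from the E6 pool of both ventricles in 1047. Those other E6 pools differed from each other in 856. At least 2-fold above both others stood 287 probe sets in right E6, 233 in the E6 pool of both ventricles and 77 in left E6. At least 2-fold below both others stood 115, 150 and 184 in the same order. The counts of the gene lists are therefore given also against the E6 pool of both ventricles. That comparison uses the same right E8 pool and is no independent repeat.

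Between E6 and E8, 1058 of 20335 kept probe sets (5.2%) differed at least 2-fold in the right ventricle. Of these, 543 (2.67%) were higher at E8 and 515 (2.53%) lower. The median difference was 1.30 among the higher and -1.33 among the lower probe sets, against -0.01 over all kept probe sets, and 94.8% of the kept probe sets lay within 2-fold. A difference of at least 4-fold was seen in 85 higher and 89 lower probe sets, and one of at least 8-fold in 16 and 16. The higher probe sets with 1 gene symbol belonged to 324 genes and the lower ones to 362, with no gene counted both ways. At E6, 111 of the higher probe sets stood below the level of the filter, as did 132 of the lower ones at E8. The size of such a difference depends on how the authors' processing treated dim signals. Against the E6 pool of both ventricles the count was 1042 (5.12%), with 589 higher (2.9%) and 453 lower (2.23%), and 242 of the 543 and 142 of the 515 met the rule there in the same direction.

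**Figure D1:**
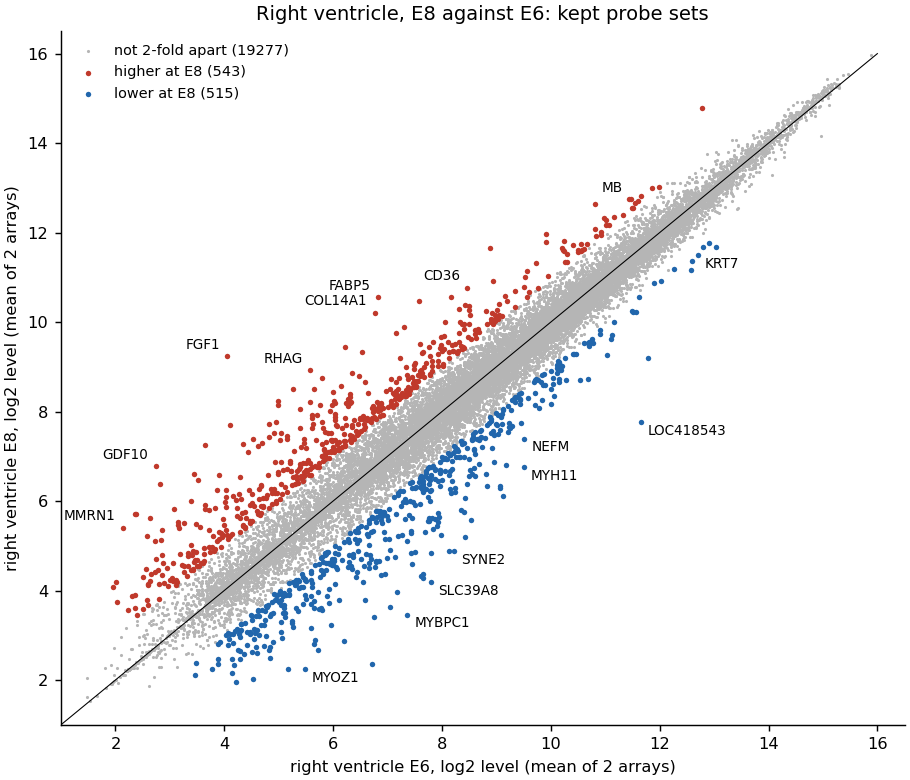
Level of each kept probe set in the right ventricle at E8 (vertical axis, log2) against E6 (horizontal axis, log2), each the mean of 2 technical arrays. Red points mark the 543 probe sets higher at E8, blue points the 515 lower at E8 and grey points the rest, and FGF1 lies farthest above the line of equal levels among the named probe sets.

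The widest difference of all belonged to FGF1, a fibroblast growth factor. Its probe set read 3.93 and 4.17 on the E6 arrays and 9.32 and 9.16 on the E8 arrays, a difference of 5.19 or 36.6-fold. It stood near the dim end of the scale at E6 and well above it at E8, with no overlap. In the left ventricle the difference was 6.25, and at E10 both ventricles stood at 10.2. A further kept FGF1 probe set, dim at both ages, read 3.50 and 3.92.

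GDF10, a secreted member of the TGF-beta family, came next among the rises. It read 2.82 and 2.67 at E6 and 7.06 and 6.49 at E8, a difference of 4.03. In all other normal pools up to E8, including the left E8 pool at 2.53, it stayed below 3. The ligated right E8 pool stood at 6.63 and the right E10 pool at 4.16, while the left pools stayed at 2.53 to 2.74. GDF10 was thus seen well above the filter level of 4.09 in the normal and the ligated right E8 pool. In right E10 it stood just above that level, and in no other pool did it reach it.

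MMRN1, which encodes multimerin, a protein of platelets and endothelium, also rose in the right ventricle alone over this step. Unlike GDF10, it was higher in right E10 than in right E8. It read 2.14 on both arrays at E6 and 5.35 and 5.46 at E8, and it stood at 6.92 in the right and 3.66 in the left E10 pool. The left ventricle differed by -0.01 over the same step. ADAMTSL1, a secreted glycoprotein of the extracellular matrix, rose from 5.01 and 4.97 to 8.20 and 8.08, against a left difference of 0.70, and its other 2 counted probe sets were higher by 1.99 and 1.97. The ADAMTSL1 probe sets disagreed on the left ventricle: that at 8.93 in right E6 was 2.10 higher there and met the rule, and the third differed by 0.41.

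FABP5, an intracellular fatty acid carrier, read 6.98 and 6.66 at E6 and 10.44 and 10.66 at E8. Its difference of 3.73 (13.3-fold) stood beside one of 4.32 in the left ventricle. COL14A1, a collagen of the fibril surface, went from 6.67 and 6.85 to 10.17 and 10.24. MATN2, which encodes the matrix adaptor matrilin-2, read 3.37 and 2.27 at E6 and 6.36 and 6.42 at E8, and its E6 arrays were far apart. MATN2 had 3 further kept probe sets, all higher, by 2.08 to 2.82. HES5, a transcriptional repressor and target of Notch, was at 2.38 and 2.37 at E6 and at 5.54 and 5.87 at E8, with a wider difference of 5.23 in the left ventricle. A second kept HES5 probe set, dim at both ages, differed by 0.40 and did not meet the rule. RXFP1, the receptor for relaxin, was 3.34 higher and the secreted muscle peptide OSTN 3.23 higher. ASB15, an ankyrin repeat protein of muscle, was 3.58 higher, and SDR42E2, of the short-chain dehydrogenase family, 3.61 higher. METTL21EP was 3.24 higher at E8. RHAG, a red cell membrane protein, is taken up with the blood cell markers.

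Of the 15 genes with the widest rise, 14 met the rule also against the E6 pool of both ventricles, with RHAG as the exception at 0.97. Of all 543 higher probe sets 242 did so. In the left ventricle 11 of the 15 met it in the same direction, as did 40.5% of the 543. Of all kept probe sets 3.06% were higher there. All 15 stood at least 2-fold above right E6 in the right E10 pool. The count of 14 reuses the right E8 pool, and the E10 count the right E6 pool, on which the genes were chosen. The YTHDC1 probe set among them was 2.98 higher, but the other kept probe sets of this reader of RNA methylation differed by -0.05, 0.13 and -0.04, so that it does not stand for the gene.

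**Figure D2:**
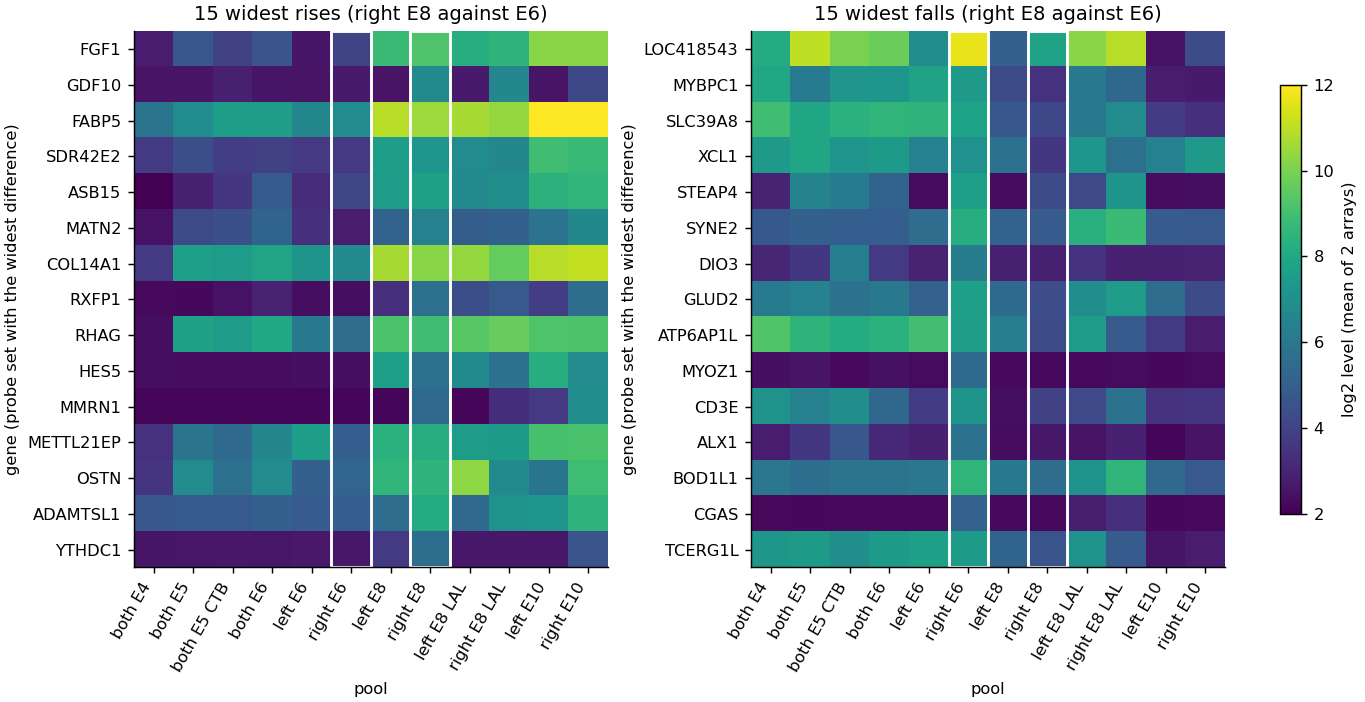
Log2 level (colour, mean of 2 technical arrays) of the 15 genes with the widest rise (left) and the 15 with the widest fall (right) from right E6 to right E8, in all 12 pools, with the compared pools framed in white. CTB is conotruncal banding and LAL left atrial ligation. FGF1 is bright in the single-ventricle pools from E8 on, GDF10 is highest in the right E8 pools, normal and ligated, and MYOZ1 in the right E6 pool alone.

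Genes of the extracellular matrix and of fibroblasts formed the longest list and held the largest number of rises, though not the largest share. Of its 85 kept probe sets 13 (15.3%) were higher at E8 and 0 lower, against 2.67% and 2.53% of all kept probe sets, and the median difference was 0.33 against -0.01. By gene, 9 of 39 kept members were higher, and 30 met the rule in neither direction. Against the E6 pool of both ventricles 25 of the 85 probe sets were higher and 0 lower, and the list's median in the left ventricle was 0.45. The 4 widest were COL14A1, whose 4 counted probe sets were 1.24 to 3.45 higher, OGN, BGN and COL1A2.

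OGN encodes osteoglycin, a small leucine-rich proteoglycan, and read 8.20 and 8.12 at E6 and 10.56 and 10.58 at E8 (difference 2.41). BGN, the proteoglycan biglycan, went from 2.01 and 2.02 to 3.92 and 4.45, so that its E6 arrays were at the dim end, and its left difference was 0.08. COL1A2, a chain of type I collagen, was 1.80 higher at 1 probe set, whereas its other kept probe sets differed by -0.05 to 0.62. The remaining counted genes were COL6A2 at 1.44, the proteoglycan LUM at 1.36, COL3A1 at 1.12, the laminin chain LAMA4 at 1.12 and COL1A1 at 1.11. Most of the kept COL3A1 probe sets did not meet the rule. Among those not counted, the fibroblast receptor gene PDGFRA differed by 0.60, DCN by 0.77, POSTN by 0.24 and 0.10, and FN1 by -0.62 to 0.23.

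Markers of vessels were higher or did not meet the rule, with 1 exception. In the endothelial and endocardial list 6 of 44 kept probe sets (13.6%) were higher and 0 lower, with a median of 0.08. The shares of all kept probe sets were 2.67% and 2.53%. The 6 belonged to 3 of 23 genes: the adhesion molecule PECAM1, the tight junction protein CLDN5 and the clotting factor VWF. All 3 kept PECAM1 probe sets were higher, by 1.09 to 1.32, and the widest read 10.45 and 10.35 at E6 and 11.67 and 11.77 at E8. CLDN5 was 1.27 and 1.10 higher and VWF 1.09. The receptors KDR, FLT1 and TEK lay between -0.41 and 0.16, and CDH5, the cadherin of all endothelium, at 0.24. The list's summed level, as log2 of summed linear values, was 15.43 on both E6 arrays and 15.85 and 15.82 at E8. Against the E6 pool of both ventricles 2 of the 44 were higher.

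Among markers of smooth muscle and pericytes 5 of 16 kept probe sets (31.2%) were higher and 1 (6.25%) lower. The shares of all kept probe sets were 2.67% and 2.53%. PDGFRB, the receptor that marks pericytes, read 7.73 and 7.45 at E6 and 9.51 and 9.50 at E8. It stood at 8.71 in the E6 pool of both ventricles, and the difference of 0.80 to that pool did not meet the rule. KCNJ8, a potassium channel of pericytes, was 1.33 and 1.23 higher and RGS5, a regulator of G protein signalling, 1.27 and 1.15. MYH11, the smooth muscle myosin, went the other way, from 9.53 and 9.47 to 6.53 and 6.99. MYH11 fell further in the left ventricle, by 5.17, and TAGLN and CALD1, which smooth muscle shares with embryonic heart muscle, lay between -0.52 and 0.01. The other kept probe sets of PDGFRB and RGS5, and those of ABCC9, also on the list, did not meet the rule. The counted pericyte probe sets and MYH11 thus differed in opposite directions within the list. Its summed level was 14.89 and 14.88 at E6 and 14.91 and 14.94 at E8, and against the E6 pool of both ventricles 3 probe sets were higher and 1 lower.

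Blood was present in both pools. The globin probe sets HBA1, HBAD, HBE and HBZ stood above 14 at both ages, with HBZ, an embryonic globin, 0.80 lower at E8 and HBA1 and HBAD 0.18 to 0.30 higher. The summed level of the red cell list was 17.51 and 17.58 at E6 and 17.56 and 17.59 at E8. Of its 13 kept probe sets 2 were higher (15.4%), both of RHAG, beside 2.67% of all kept probe sets. The counts against the E6 pool of both ventricles were 0 higher and 4 lower. RHAG read 5.51 and 5.64 at E6 and 8.95 and 8.89 at E8. It stood at 7.94 in the E6 pool of both ventricles, so that the difference of 3.34 fell to 0.97 against that pool. In the leukocyte and platelet list 1 of 19 kept probe sets (5.26%) was higher, for the clotting factor subunit F13A1 at 1.19. The other kept F13A1 probe set did not meet the rule. Among the 19 another 1 (5.26%) was lower, for CD3E, against 2.67% and 2.53% of all kept probe sets. With the E6 pool of both ventricles as the earlier pool 5 were higher and 1 lower. The C1QB and C1QC probe sets, of macrophage complement, were 0.64 to 0.78 higher and did not meet the rule. The part of blood cells in the other differences was not tested.

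Among growth factors and their receptors 4 of 31 kept probe sets (12.9%) were higher and 3 (9.68%) lower, against 2.67% and 2.53% of all kept probe sets, with a median of 0.06. With the E6 pool of both ventricles as the earlier pool 5 were higher and 0 lower. Against right E6, the higher ones besides FGF1 and PDGFRB were PDGFB, the ligand of PDGFRB, from 6.31 and 6.10 to 7.52 and 7.49, and KITLG, the ligand of the KIT receptor, by 1.21. Against the E6 pool of both ventricles FGF1 differed by 4.62, but PDGFRB by 0.80 and did not meet the rule. NRG1, the endocardial ligand that promotes trabeculation, fell from 8.72 and 8.63 to 7.17 and 7.58, and a dimmer NRG1 probe set differed by -0.02. FGF13 and FGFR3 were 1.04 and 1.03 lower at 1 probe set each, while their other kept probe sets lay between -0.70 and 0.24. NRG1 differed by -0.93, FGF13 by -0.59 and FGFR3 by 0.23 against the E6 pool of both ventricles.

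For Notch, HEY1, a target of the pathway, read 5.55 and 6.05 at E6 and 8.66 and 8.83 at E8, and its difference of 2.95 stood beside 3.25 in the left ventricle. The ligand JAG1 read 7.87 and 7.88 at E6 and 6.30 and 6.70 at E8, a difference of -1.37 beside -1.70 in the left ventricle. Another kept JAG1 probe set did not meet the rule. NOTCH2 was 2.35 lower at a probe set that stood at 4.84 at E6, but its probe sets at 8.64 and 11.72 differed by 0.17 and 0.39. The list held 1 higher (6.67%) and 2 lower (13.3%) of 15 kept probe sets, against 2.67% and 2.53% of all kept probe sets. With the E6 pool of both ventricles as the earlier pool it held 2 higher and 1 lower. HES5, described above, is a further target of Notch and was not on the list.

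Of the Wnt genes 1 of 26 kept probe sets (3.85%) was higher and 4 (15.4%) lower, against 2.67% and 2.53% of all kept probe sets. With the E6 pool of both ventricles as the earlier pool 0 were higher and 5 lower. WNT5A, a ligand of non-canonical signalling, was lower at 2 of its 3 kept probe sets, by 1.57 and 1.17, and read 10.30 and 10.27 at E6 and 8.79 and 8.63 at the widest of them. The receptor FZD7 fell from 4.85 and 4.84 to 2.71 and 2.77 and the secreted inhibitor WIF1 from 5.89 and 5.66 to 3.62 and 3.61, and both stood at least 2-fold higher in the right E6 pool than in the other E6 pools. FZD4 was 1.03 higher at 1 probe set. FZD7 and FZD4 each had another kept probe set that did not meet the rule. In the TGF-beta and BMP list 1 of 36 (2.78%) was higher and 0 lower, a share near that of all kept probe sets, and 1 and 2 against the E6 pool of both ventricles. TGFBR3, the co-receptor betaglycan, read 6.05 and 5.96 at E6 and 8.38 and 8.50 at E8, but it was at 8.03 in the E6 pool of both ventricles and at 7.83 in the left E6 pool, and the difference to the former was 0.41. ADM, the vasodilator adrenomedullin, was the one higher probe set of 17 (5.88%) among natriuretic and hormone genes and of 28 (3.57%) among hypoxia and stress genes. The share of all kept probe sets was 2.67%. For these lists the counts against the E6 pool of both ventricles were 3 higher and 1 lower, and 1 higher and 0 lower. ADM read 10.81 and 10.82 at E6 and 12.64 on both arrays at E8.

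Of 72 kept probe sets of the contractile apparatus 3 (4.17%) were higher and 9 (12.5%) lower, against 2.67% and 2.53% of all kept probe sets, and they came from 3 of 35 genes: PDLIM5, MYBPC1 and TTN. Only 1 was higher and 2 lower against the E6 pool of both ventricles. The list's median was 0.12 and its summed level 19.54 on both E6 arrays and 19.68 and 19.66 at E8. The main ventricular myosins and thin filament genes lay near the top of the scale at both ages, where a change may not show in full: MYH15 differed by 0.09, MYL2 by 0.08, TNNT2 by 0.05 and ACTC1 by 0.16. MYH7 was 0.87 higher and MYL4 0.78 lower, both within 2-fold.

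MYBPC1, the skeletal type of myosin-binding protein C, had the widest difference in the list. It read 7.35 and 7.37 at E6 and 3.55 and 3.37 at E8, a difference of -3.90, and a second probe set went from 9.12 to 6.12. The left ventricle differed by -3.49 and the E10 pools stood at 2.75 and 2.72. MYBPC3, the cardiac type, differed by 0.18 to 0.55. PDLIM5, a Z-disc scaffold, was higher at 3 of its 5 kept probe sets, by 1.08 to 2.01. The lower TTN probe sets are described with the right E6 pool.

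In metabolism, 3 of 41 kept probe sets (7.32%) of oxidative phosphorylation and fatty acid oxidation were higher and 0 lower, with a median of 0.20. The shares of all kept probe sets were 2.67% and 2.53%. The list's counts were the same against the E6 pool of both ventricles. CD36, which takes up fatty acids, read 8.41 and 8.52 at E6 and 10.77 on both arrays at E8, and its second probe set was 2.07 higher. MB, the oxygen store myoglobin, went from 11.42 and 11.47 to 12.74 and 12.76. With FABP5 these were the counted genes of fatty acid and oxygen handling, whereas FABP3, the heart fatty acid carrier, differed by 0.39, CPT1A by 0.68 and 0.56, and PPARGC1A by 0.39 and 0.71. No probe set of glycolysis (0 of 24) or of ribosome and translation (0 of 22) met the rule, and their medians were 0.12 and 0.05. Of all kept probe sets 5.2% met it, and lists of this size can hold 0 at that share. Of the iron, lipid and retinol transport list 2 of 27 were higher (7.41%) and 0 lower, beside 2.67% and 2.53% of all kept probe sets. The list's counts against the E6 pool of both ventricles were 1 and 7, where all kept probe sets had 2.9% and 2.23%. Its higher members were FABP5 and TTR, the transport protein transthyretin, which is described with the left ventricle.

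In the calcium and ion channel list 0 of 48 kept probe sets were higher and 1 (2.08%) lower, beside 2.67% and 2.53% of all kept probe sets. Its counts against the E6 pool of both ventricles were 4 and 1. The one lower than in right E6 was a CAMK2D probe set at -1.17 whose 3 other kept probe sets differed by -0.62 to 0.06. RYR2, the calcium release channel, was 0.77 and 0.18 higher and TRDN 0.87 and 0.23. Among cardiac transcription factors HEY1 was higher and TBX5 and IRX5 lower, together 1 (2.63%) and 3 (7.89%) of 38 kept probe sets. The shares of all kept probe sets were 2.67% and 2.53%. The list's counts were the same against the E6 pool of both ventricles, but IRX5 differed by 0.13 there and was not counted. IRX5 was dim, at 4.62 in right E6 and 3.56 in right E8. TBX5, which is known for its higher level in the left ventricle, read 7.22 and 7.08 at E6 and 5.64 and 5.77 at E8, and its second probe set fell by 1.29. In the left ventricle TBX5 differed by 0.95, and at E10 it stood at 4.56 in the right and 6.76 in the left.

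The cell cycle list had a median of -0.17, with 1 higher (1.75%) and 2 lower (3.51%) of 57 kept probe sets, shares near those of all kept probe sets. These counts were 1 and 0 against the E6 pool of both ventricles. The lower ones were both of CENPF, a centromere protein, at -1.72 and -1.11, and its other kept probe sets differed by -0.13 and -0.12. CENPF stood at 9.79 in the right E6 pool and at 8.27 and 8.41 in the other E6 pools. The higher one was a dim MCM6 probe set at 2.23, while that of MCM6 at 12.49 differed by -0.02. MKI67 differed by -0.11, PCNA by -0.07 and CDK1 by -0.13.

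**Figure D3:**
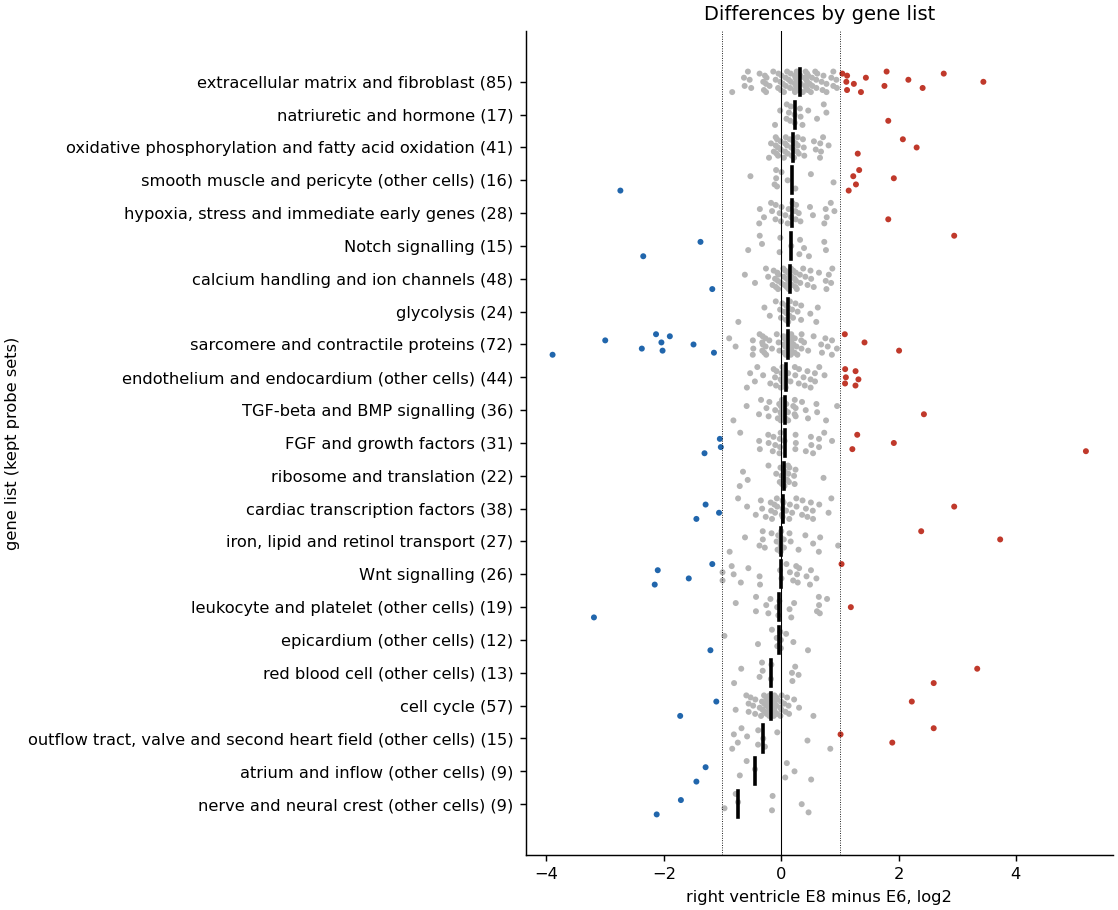
Difference of each kept probe set between right E8 and right E6 (horizontal axis, log2), by gene list (vertical axis, with the number of kept probe sets), ordered by the list's median, drawn as a black bar. Red and blue points met the 2-fold rule as higher and lower, grey points did not, and the dotted lines mark 2-fold. The extracellular matrix list has the highest median, 0.33, and the nerve list the lowest, -0.73.

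The widest fall among named genes, -3.90, was shared by MYBPC1 and LOC418543. LOC418543, which the annotation used here gives no further name, read 11.64 and 11.66 at E6 and 7.67 and 7.84 at E8, but it ranged from 2.50 to 11.65 over the 12 pools. SLC39A8, a zinc and manganese importer, fell from 7.84 and 7.75 to 4.07 and 4.29, and its 2 other kept probe sets fell by 2.73 and 2.97. In the left ventricle SLC39A8 differed by -3.80, and at E10 it stood at 3.74 and 3.36. XCL1, a lymphocyte chemokine, went from 7.14 and 6.96 to 3.56 and 3.71, and it was at 5.68 or above in every other pool, so that the right E8 pool was the low one. TCERG1L was 2.85 lower and ATP6AP1L 3.29 lower, with left differences of -2.44 and -2.73.

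In 10 of the 15 genes with the widest fall the right E6 pool was at least 2-fold above both other E6 pools. MYOZ1, a Z-disc protein of fast skeletal muscle, read 5.20 and 5.76 at E6 and lay between 2.22 and 2.54 in every other pool. DIO3, the deiodinase that inactivates thyroid hormone, read 6.24 and 6.17 at E6 and 2.88 and 2.87 at E8, and it was at 2.94 in the left E6 pool and 6.31 in the banded E5 pool. CGAS, a sensor of cytosolic DNA, read 5.50 and 4.83 at E6 and 2.25 on both arrays at E8, and ALX1, a homeobox gene, 5.86 and 5.59 and then 2.71 and 2.61. The probe sets given for these genes were thus low again in most other pools. Other kept CGAS probe sets differed by -0.28 and -1.88. The brighter of them read 8.90 in right E6 and 8.61 in right E8, so the fall does not stand for the gene. STEAP4, a metalloreductase, fell by 3.37, GLUD2, which the annotation gives as glutamate dehydrogenase, by 3.29, and CD3E, a subunit of the T cell receptor complex, by 3.19. Of the 15, 8 met the rule also against the E6 pool of both ventricles and 6 in the left ventricle in the same direction. Of all 515 lower probe sets, 142 met it against that pool and 27.4% in the left ventricle, where 2.4% of all kept probe sets were lower. The count of 8 reuses the right E8 pool on which the genes were chosen.

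Over all 515 lower probe sets, the right E6 pool was at least 2-fold above both other E6 pools in 183 (35.5%), against 287 of all 20335 kept. It was the highest of the E6 pools in 404 (78.4%), against 33.2% of all kept probe sets. The choice of right E6 as the earlier pool favours both shares. The 183 had a median level of 6.60 in right E6, 4.51 in the E6 pool of both ventricles, 4.70 in left E6 and 4.61 in right E8. In the ligated pools at E8 the same probe sets stood at 5.70 in the right and 5.08 in the left. The other 332 had medians of 7.61 in right E6, 6.97 and 7.05 in the other E6 pools and 6.12 in right E8, and they reached 5.37 in right E10. Of the 543 higher probe sets, right E6 was at least 2-fold below both other E6 pools in 44 (8.1%), against 115 of all 20335 kept. It was the lowest of the E6 pools in 317 (58.4%), against 34.8% of all kept probe sets, and the same choice favours these shares.

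TTN, the giant elastic protein of the sarcomere, shows the pattern within a gene. Of its 11 kept probe sets 7 were lower at E8, by 1.15 to 2.37, and 4 differed by -0.31 to 0.34, among them those that stood above 14 at both ages. The widest read 9.29 and 9.07 at E6 and 6.87 and 6.75 at E8. The same 7 probe sets differed by 0.03 to 0.61 in the left ventricle and by 0.05 to 0.99 against the E6 pool of both ventricles. The ligated right pool stood 1.08 to 3.47 above right E8 for them, and the ligated left pool 1.44 to 3.38 above it. The probe sets of 1 gene thus differed in size and sign, and those above 14 were 0.34 and 0.21 higher at E8. SYNE2, which encodes the giant nuclear envelope protein nesprin-2, was alike: it read 8.32 and 8.12 in right E6, 4.84 and 4.91 in right E8, 4.98 and 5.56 in the other E6 pools and 8.28 and 8.82 in the ligated left and right ventricle. BOD1L1, at 8.53 in right E6 and 5.57 in right E8, was at 8.55 in the ligated right pool, and its other kept probe sets differed by -1.28, -0.06 and 0.44.

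The 3′ minus 5′ difference of the actin control probe sets, a measure of RNA or labelling quality, was 0.43 in right E6, the upper end of the range of 0.17 to 0.43 over the 12 pools, and 0.34 in right E8 and 0.38 in the ligated right pool. For GAPDH it was -0.27 in right E6, within the range of -0.36 to -0.24. For EF1A it was 0.09 in right E6, the lower end of the range of 0.09 to 0.21. The part of RNA quality in these falls was not tested.

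**Figure D4:**
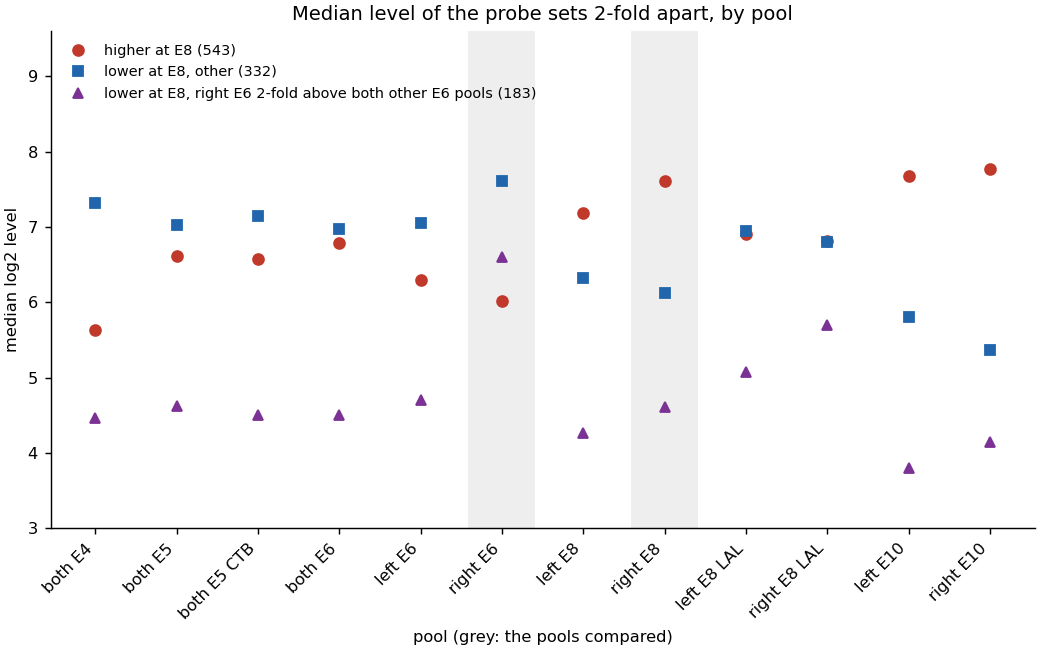
Median log2 level (vertical axis) in each of the 12 pools (horizontal axis) of the 543 probe sets higher at E8 and of the lower ones, split into the 183 in which right E6 was at least 2-fold above both other E6 pools and the other 332. Each point is a median over probe sets and has no error bar; the 183 stand at 6.60 in right E6 and at 5.70 in the ligated right E8 pool.

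Markers of tissues that border the ventricle or grow into it were mostly lower or not counted, except in the outflow list. Of 9 kept nerve and neural crest probe sets 2 (22.2%) were lower, against 2.53% of all kept probe sets. They were of the neurofilaments NEFM, from 9.53 and 9.50 to 7.38 and 7.41, and NEFL, lower by 1.71. Another kept NEFM probe set did not meet the rule. The list median was -0.73 and the summed level 12.68 and 12.69 at E6 and 11.89 and 11.92 at E8. In the left ventricle NEFM differed by -2.32 and NEFL by -1.30. The atrial list had 2 of 9 lower (22.2%), both of TBX5. Each of these lists had 1 higher and 3 lower against the E6 pool of both ventricles. Among atrial genes NPPA and SLN differed by 0.23 and 0.10. KRT7, an epithelial keratin on the epicardial list, fell from 12.69 and 12.71 to 11.45 and 11.54. It was the only counted probe set of 12 (8.33%), beside 5.2% of all kept probe sets counted either way, with 0 counted against the E6 pool of both ventricles. The epicardial genes TCF21, TBX18 and ALDH1A2 differed by -0.16 to 0.21, and the 3 UPK1B probe sets stayed at 2.6 or below.

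In the outflow and valve list 3 of 15 kept probe sets (20.0%) were higher and 0 lower, against 2.67% and 2.53% of all kept probe sets. The higher ones were of the guidance factor SEMA3C, at 2.60 and 1.89, and the proteoglycan ACAN, at 1.01. SEMA3C read 4.96 and 4.87 at E6 and 7.99 and 7.04 at E8, with 6.63 and 6.66 in the other E6 pools, and no probe set of this list was counted against the E6 pool of both ventricles. The summed level of the list was 14.62 and 14.63 at E6 and 14.36 and 14.34 at E8, and that of the epicardial list 14.52 and 14.50, then 14.19 and 14.23. The part of a changed dissection border or of other cells in the right ventricle differences was not tested.

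The left ventricle over the same days differed in 1111 of 20335 kept probe sets (5.46%), 622 higher (3.06%) and 489 lower (2.4%). Both ventricles met the rule upwards in 220 probe sets, which is 40.5% of the right and 35.4% of the left rises, and downwards in 141, 27.4% of the right and 28.8% of the left falls. The median left difference was 0.71 for the probe sets higher in the right ventricle and -0.47 for those lower there. Across the 20335 probe sets, which are not independent replicates, the differences of the 2 ventricles had a Pearson correlation of 0.471 and a Spearman correlation of 0.406, given as a description.

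Opposite directions met the rule in 17 probe sets, 9 higher in the right and lower in the left and 8 the reverse. Those with the widest right difference each way, chosen here after their values were seen, were TTR and ETS1. TTR read 2.19 and 3.27 at right E6 and 4.91 and 5.31 at right E8, but the E6 pool of both ventricles stood at 10.54, and the level ranged widely over the pools. ETS1, a transcription factor of endothelium and neural crest, read 8.83 and 8.79 at E6 and 6.37 and 6.83 at E8. In the left ventricle ETS1 stood at 5.24 at E6 and 6.91 at E8, but at 8.46 in the E6 pool of both ventricles. Its left rise thus rests on a low left E6 pool. CCN3, a matricellular protein, rose from 5.02 and 5.05 to 6.98 and 6.79 in the right ventricle and differed by -1.82 in the left. IRX5, a transcription factor, was 1.06 lower in the right and 1.28 higher in the left.

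**Figure D5:**
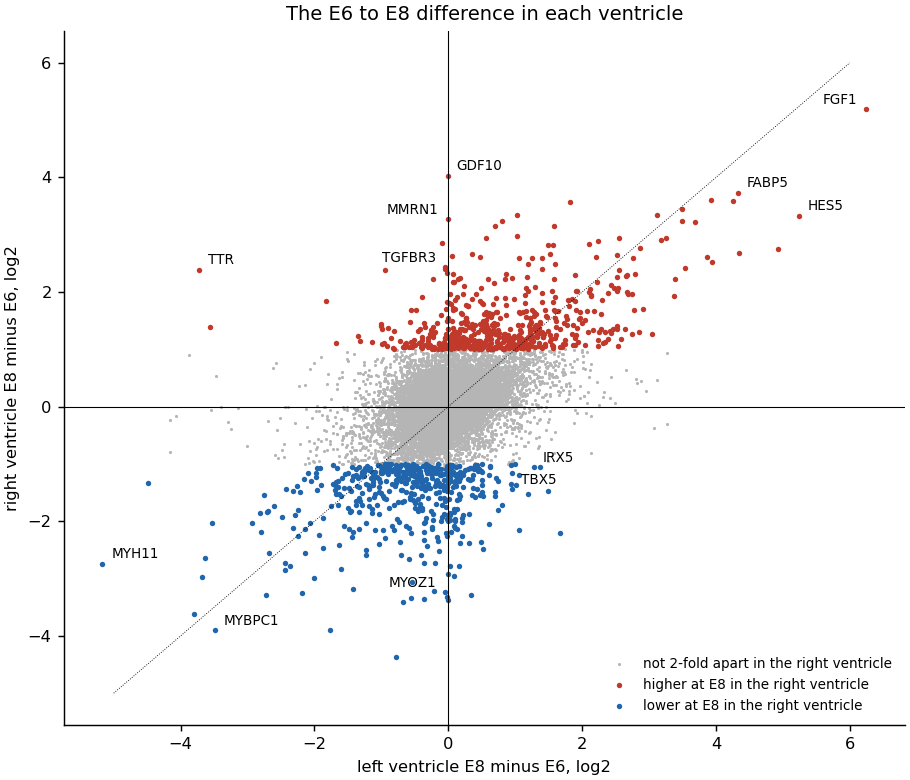
Difference between E8 and E6 in the right ventricle (vertical axis, log2) against that in the left (horizontal axis, log2) for the kept probe sets, 1 pool per age and side. Colours mark the probe sets that met the 2-fold rule in the right ventricle, and the dotted line equal differences. FGF1 and FABP5 lie near that line, GDF10 and MMRN1 at a left difference of -0.01, and TTR at 2.39 in the right and -3.72 in the left.

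A test was possible only with a spread borrowed from the other pools. In limma fits over the 8 single-ventricle pools, the spread is how far the right-left difference varies between conditions, not the variation between pools of 1 condition. With 2 residual degrees of freedom, 0 of 20335 right ventricle steps (0%) had an adjusted p under 0.05, with 2500 at an unadjusted p under 0.05, and the smallest adjusted p was 0.157. For the right minus left difference of the steps the count was also 0 (0%), with 1055 at an unadjusted p under 0.05 and a smallest adjusted p of 0.937. A change in 1 ventricle alone enters the residual of this fit, so the lack of calls does not show that the ventricles acted alike. A fit with separate right-left terms at each age, added after seeing the data, called 0 for both as well, with 2675 and 1483 at an unadjusted p under 0.05.

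For the step common to both ventricles, with 3 residual degrees of freedom, 159 probe sets (0.782%) passed at an adjusted p under 0.05, of which 112 rose and 47 fell, with median steps of 1.5 and -1.33. In the right ventricle 94 of the 112 and 40 of the 47 also met the 2-fold rule. These pools also entered the fit. The E6 pool of both ventricles did not. Right E8 stood above that pool for most of the 112, as for FGF1 by 4.62. For others it stood below, as for CCNK at -1.61, so that their rise rests on the single-ventricle E6 pools. The count of the common step was 0 without the ligated pair, with 3053 at an unadjusted p under 0.05. A fit without the ligated pair has 2 residual degrees of freedom in place of 3. The cause of the loss was not tested. Of the 15 widest right rises 7 were among them: FGF1, with a common step of 5.72 ± 0.36 (SE, limma, adjusted p = 0.0179), HES5 at 4.28, FABP5 at 4.03, ASB15 at 3.91, SDR42E2 at 3.77, COL14A1 at 3.47 and RHAG at 3.23. SDR42E2 had the smallest error of these, 0.12 (adjusted p = 0.00689). Of the 15 widest right falls 2 were among them: MYBPC1, at -3.69 ± 0.21 (limma, adjusted p = 0.017), and SLC39A8, at -3.71 ± 0.38 (limma, adjusted p = 0.0363). These rises and falls were chosen for a wide difference between right E8 and right E6, which is part of the common step. That choice favours their calls, so the counts of 7 and 2 are no support for them.

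Among the genes named from lists, HEY1 (3.10 ± 0.17, limma, adjusted p = 0.0143), CD36, PDGFRB and ADM rose in the common step, and NEFL, KRT7 and NRG1 fell. They too had been named for meeting the rule between right E6 and right E8, which favours such a call. MB, JAG1, NEFM and VWF did not pass, with adjusted p between 0.0505 and 0.065 by limma and common steps of 1.82, -1.54, -2.22 and 1.40. Further genes with wide common steps, chosen after their values were seen, were the actin-like ACTBL2 at 3.23 and the carbonic anhydrase CA4 at 2.98, which rose, and the homeobox gene LHX9 at -3.14 and the skeletal myosin light chain MYL1 at -2.25, which fell. MYL1 was dim, at 4.22 in right E6 and 1.95 in right E8, and ACTBL2 stood at 3.39 in right E6. The size of these steps depends on how dim signals were processed.

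The later and the operated right ventricle pools are set beside these values as levels only. The E8 pool is shared with both comparisons, and the probe sets were chosen on right E6 and right E8. The 543 higher probe sets had a median of 6.02 in right E6, 7.61 in right E8, 7.77 in right E10 and 6.81 in the ligated right E8 pool. For the 515 lower ones these medians were 7.29, 5.58, 5.03 and 6.58. The ligated right pool lay between right E6 and right E8 in both sets. So did the ligated left pool, at 6.91 and 6.33, and the E6 pool of both ventricles, at 6.79 and 6.29. Both sets were chosen for a wide gap between right E6 and right E8, which favours such a position for any pool. At E10 all 15 of the widest rises and 14 of the 15 widest falls stood at least 2-fold from right E6 on the side of E8, with XCL1, at 7.41, as the exception. These counts reuse the right E6 pool on which the genes were chosen, which favours them. That pool was at least 2-fold above both other E6 pools in 10 of the 15 falls. In the ligated right pool 10 of the 15 widest rises and 5 of the 15 widest falls were within 2-fold of right E8. The like share of all kept probe sets was not counted, so 10 and 5 describe these genes only. An effect of ligation on them was not tested.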

How the data were processed

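Expression was measured on one-colour oligonucleotide arrays. The submitters' processing notes name GCRMA and MAS5, without a version and without saying which produced the table. The authors deposited log2 values (0.14 to 16.09, scale read from the values) for 38535 probe sets. They were used as deposited, and 96 control probe sets were left out. Array numbers label technical arrays, which were averaged.

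Probe sets were named through the platform annotation, with symbols updated to RefSeq GRCg7b by gene identifier: 27168 had 1 symbol, 177 several and 11094 none here. No positions are given because no build is named in the files. Precision is limited by n = 1 pool per age, since the 2 arrays of each pool are technical.

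The 15 widest rises and falls, 1 probe set per gene, and up to 4 counted members per gene list and direction were named. The members and lists were chosen with earlier results of these data known. Fits used limma 3.58.1 in R 4.3.3 (two-sided, Benjamini-Hochberg over 20335 probe sets) and were tested on simulated data. Alternatives covered the filter, normalization, floor, fold, single arrays, the earlier pool, subsets of pools and limma settings.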

Additional observations from a re-analysis of the deposited data

Results flagged for a closer look

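TTR, which encodes transthyretin, was 2.39 higher at E8 in the right ventricle and lower in the left, with a difference of -3.72. The right step exceeded the left by 6.10 ± 1.37 (SE, limma on 8 single-ventricle pools, adjusted p = 0.937). IRX5 was lower in the right ventricle, at -1.06, and higher in the left, at 1.28, and the steps differed by -2.34 ± 0.52 (limma, adjusted p = 0.937). They are the genes, of those named by rule, for which the ventricles met the 2-fold rule in opposite directions. Among all kept probe sets 17 did so, 13 of them with an unadjusted p under 0.05 for the difference and 0 with an adjusted one (limma). Over all 20335 kept probe sets 1055 had such an unadjusted p. The 17 were chosen on these same pools for opposite steps. A wide difference was thus fixed in advance, and the 13 are no support for it. CCN3, with 1.84 in the right and -1.82 in the left ventricle, had a difference of 3.66 ± 0.36 (limma, adjusted p = 0.937). Against the E6 pool of both ventricles the right E8 pool stood at -5.43 for TTR and 0.13 for IRX5, opposite in sign to the values against right E6.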

How the results depend on the processing

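The count of 1058 stayed within 1.5 times under quantile normalization (1073), median centring (1059), no filter (1090), a filter on the right pools (1036), a floor (903), no requirement on duplicate arrays (1059), single arrays (1134 to 1159) and the E6 pool of both ventricles (1042). It was 468 with the 70th percentile filter, 3071 at 1.5-fold, 174 at 4-fold and 697 against the mean of both E6 pools. The limma right step called 2 with the 70th percentile filter and 0 in the other settings run, and its difference from the left step 0 in each. The common step called 276 with the 70th percentile filter, 68 with no filter, 99 with all 12 pools, 0 without the ligated pair, 54 without the E10 pair, 407 with an intensity trend and 83 to 97 on single arrays; the cause was not tested.

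All 70 named genes met the rule after quantile normalization and after centring, and 67 on either single array. Against the E6 pool of both ventricles 41 did, 23 kept only their direction, and 6 reversed: CGAS at 0.01, FGFR3 at 0.23, IRX5 at 0.13, NOTCH2 at 0.27, TTN at 0.99 and TTR at -5.43. No paired analysis was possible because replicate numbers label technical arrays of 1 pool, which were averaged before any test (r = 0.011 between first-array deviations of right E6 and right E8).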
